A study of Bos taurus with 24 samples.

Results

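IRF1, IRF8 and PRDM1 are genes of transcription factors that macrophages use when they meet bacteria. They were followed here in bovine monocyte-derived macrophages (MDMs). Members were chosen by their Ensembl gene identifiers (ENSBTAG00000031231 for IRF1, ENSBTAG00000017824 for IRF8 and ENSBTAG00000000816, which carries the symbol PRDM1), 3 of the 24616 genes listed in each library. The MDMs were grown with bovine GM-CSF from blood monocytes of 6 lactating Holstein cows, 3 of which had been classed as high responder and 3 as low responder by the nitric oxide (NO-) that their MDMs released on E. coli in culture. For each cow and time point, 1 well was left as the control and 1 was exposed to E. coli that had been inactivated with PFA, at a multiplicity of infection (MOI) of 5, for 3 or 18 hours. This gave 24 mRNA libraries, 3 for each of 8 conditions. No cow carried a genetic modification, and the phenotype is a property of the cow, so that each group rests on 3 animals of 1 breed.

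IRF1 and IRF8 belong to the interferon regulatory factors, proteins that share a DNA-binding domain and bind interferon-stimulated response elements. As textbook background, IRF1 is a rapidly induced activator downstream of NF-kB and interferon-gamma signalling, and it drives the genes of inducible NO synthase, of antigen processing and of guanylate-binding proteins. IRF8 sets the monocyte and dendritic cell lineages and binds DNA mainly together with partners such as PU.1, AP-1 proteins or IRF1. PRDM1 (also called Blimp-1) is a zinc finger repressor with a PR domain, best known for terminal plasma cell differentiation, and it restrains cytokine genes in myeloid cells.

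Totals were between 6297190 and 20936554 expected counts per library, where an expected count is RSEM's estimate of the read pairs of a gene. Each of the 3 genes had 1 annotated transcript, and their counts were whole numbers in all 24 libraries. Counts ranged from 518 to 25120 for IRF1, from 272 to 4103 for IRF8 and from 335 to 4641 for PRDM1, so that none was limited by low counts, and all 3 passed the filter on low counts in every fit. Of 8 macrophage and monocyte markers, 3 could be matched to an identifier. CD68 lay between 1215 and 2671 TPM (RSEM's level per transcript length) and CD14 between 41.0 and 321 TPM over all libraries. CD14 was between 133 and 167 TPM in the high and between 41.0 and 97.8 TPM in the low responder exposed wells at 18 hours. With E. coli it fell by 1.08 on the log2 scale in the low responder group at 18 hours (edgeR adjusted p = 4.02e-05), and its value in the high responder group was -0.42. MSR1 was between 286 and 788 TPM in the control wells at 3 hours and between 373 and 635 TPM at 18 hours, but in the exposed wells at 18 hours it was between 15.5 and 33.1 TPM in the high and between 39.4 and 43.4 TPM in the low responder group. The part of these marker levels in the results below was not tested. CD79A, which marks B cells, stayed at or below 2.67 TPM, and PRF1, which marks NK cells, at or below 2.50 TPM. Markers of dendritic cells, plasma cells, T cells and neutrophils could not be matched to an identifier here.

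All 3 genes rose with E. coli in both phenotypes at both time points. The E. coli effect is the log2 ratio of the exposed to the control well of 1 cow, and a gene was counted as changed at an adjusted p below 0.05 and a fold change above 1.5 in edgeR's quasi-likelihood test. By these thresholds, all 12 effects (3 genes in 4 comparisons) were increases. Among all genes tested, 15.7% rose in the high responder group and 9.93% in the low responder group at 3 hours, and 17.1% and 11.3% did at 18 hours. By size of the increase, IRF1 ranked 77 and 80 of 11264 genes at 3 hours in the high and low responder group and 110 and 135 of 11759 at 18 hours. PRDM1 ranked 189 and 176 at 3 hours and 292 and 309 at 18 hours, and IRF8 310 and 152 and then 710 and 255. In bulk libraries, a change in the share of cells that express a gene and a change in its RNA per cell cannot be told apart.

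**Figure D1:**
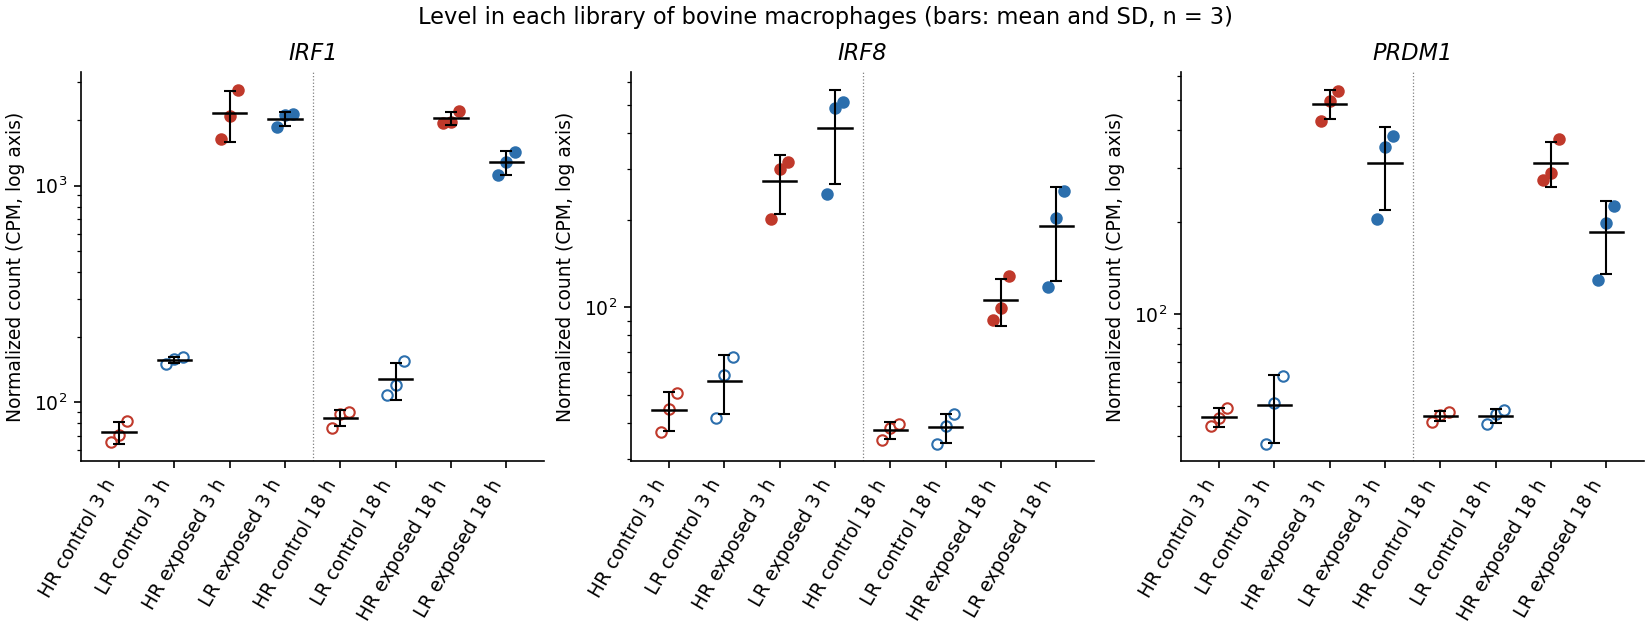
Level of IRF1, IRF8 and PRDM1 in each of the 24 libraries, as CPM (counts relative to the effective size of each library) on a log axis, by phenotype (HR, high responder, red; LR, low responder, blue), well (open, control; filled, exposed) and time point; horizontal lines and bars give the mean and SD of 3 libraries. For every gene the exposed wells lay above the control wells, and for IRF1 the control wells of the low responder group lay above those of the high responder group.

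IRF1 had the widest range of the 3, and its control wells did not overlap between the phenotypes. At 3 hours, control wells gave 65.2, 70.7 and 81.4 CPM in the high responder group. In the low responder group they gave 150.5, 158 and 161 CPM. All control values of the low responder group were thus above all values of the high responder group, an order that 6.95% of all genes showed in the same direction. The exposed wells overlapped, with 1634, 2088 and 2764 CPM in the high and 1858, 2121 and 2131 CPM in the low responder group. The log2 difference, high minus low, was -1.12 (SE 0.18, edgeR adjusted p = 0.120) in the control wells and 0.12 (SE 0.24, edgeR adjusted p = 0.848) in the exposed wells. On the fold scale, the control level was 2.17-fold lower in the high responder group (95% interval 1.64 to 2.88). The difference in the control wells did not pass the threshold in edgeR, in which 1 of 11034 genes did (0.00906%), but passed in DESeq2 with an adjusted p of 2.03e-06, as did 2.18% of genes.

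At 18 hours neither kind of well overlapped between the phenotypes, and the order of the phenotypes was opposite in control and exposed wells. Control wells gave 76.1, 87.8 and 89.9 CPM of IRF1 in the high and 107.7, 119 and 155 CPM in the low responder group. Exposed wells gave 1954, 1970 and 2219 CPM in the high and 1120, 1286 and 1434 CPM in the low responder group. The low responder group lay above in the control wells, as for 13.2% of all genes, and the high responder group in the exposed wells, as for 12.2%. The log2 difference was -0.60 (SE 0.15, edgeR adjusted p = 0.0848) in the control wells and 0.67 (SE 0.14, edgeR adjusted p = 0.0927) in the exposed wells. Neither passed in edgeR, where 0.15% and 0.0446% of genes did, and both passed in DESeq2 (adjusted p = 0.0080 and 0.000193), where 6.1% and 5.69% of genes did.

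The E. coli effect on IRF1 joins both wells of a cow. At 3 hours the log2 changes of the 3 pairs were 4.33, 4.88 and 5.40 in the high and 3.52, 3.75 and 3.82 in the low responder group, and at 18 hours they were 4.44, 4.66 and 4.69 against 3.05, 3.38 and 3.59. The high responder pairs were above all low responder pairs at both time points, as were those of 9.13% of all genes at 3 hours and 10.8% at 18 hours. The fitted effects corresponded to a 30.4-fold (95% interval 21.9 to 42.2) and a 13.1-fold (9.62 to 17.8) increase at 3 hours, and to a 24-fold (19.7 to 29.2) and a 9.96-fold (8.28 to 12) increase at 18 hours. At 18 hours the log2 difference between the effects was 1.27 (SE 0.16, edgeR adjusted p = 0.00799), which passed both thresholds, as did 1.62% of all genes. At 3 hours it was of similar size, 1.22 (SE 0.25, edgeR adjusted p = 0.0988), where 0.178% of genes passed. The 3 hours value passed without the pair of the high responder library number 94, the one with the smallest change (1.46, edgeR adjusted p = 0.000532). The 18 hours call was kept when any pair of wells was left out, and it was lost without the term for pairs (1.28, edgeR adjusted p = 0.113).

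**Figure D2:**
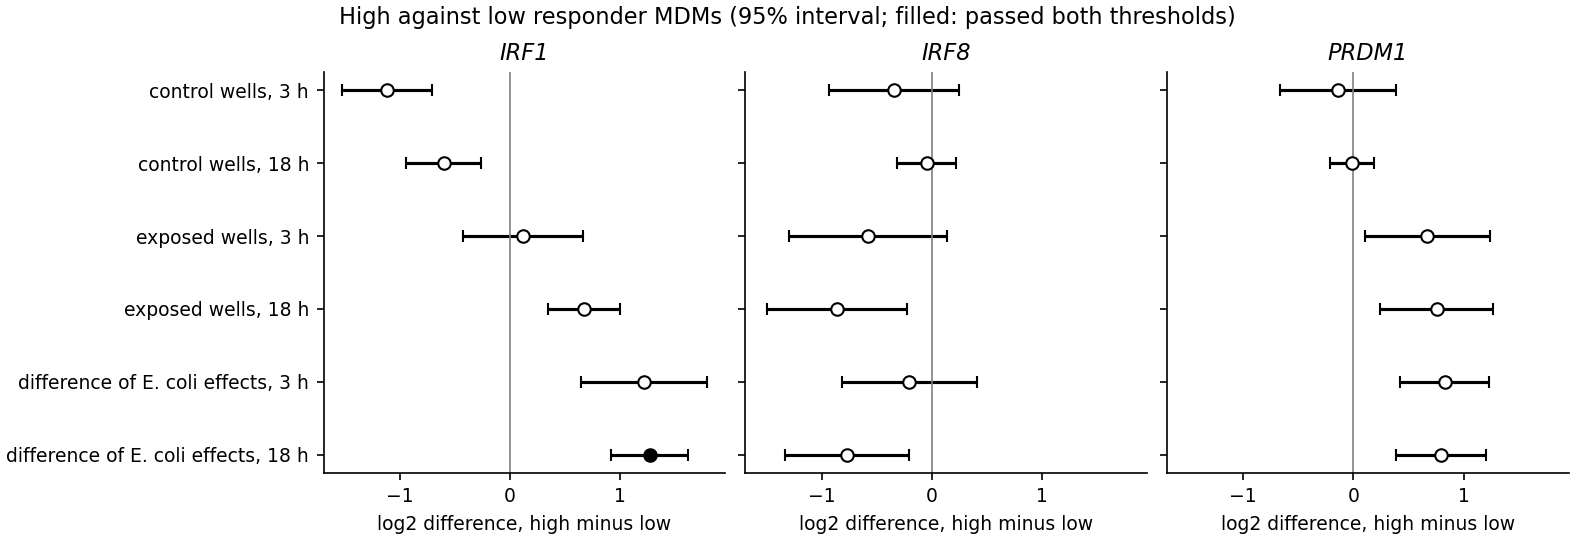
Log2 difference between high and low responder MDMs in control wells, in exposed wells and in the E. coli effect, at 3 and 18 hours, with 95% intervals from edgeR; a filled point passed both thresholds. For IRF1 the control wells lay below 0 and the difference of effects above 0, for PRDM1 only the exposed wells and the difference of effects had intervals above 0, and for IRF8 the 18 hours exposed wells and difference of effects had intervals below 0.

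IRF1 fell between the time points in the exposed wells of the low responder group. From 3 to 18 hours, the level in the exposed wells of the low responder group fell by 0.67 on the log2 scale (SE 0.17, edgeR adjusted p = 0.00735), whereas 11.4% of all genes fell there. In the high responder group the log2 change was -0.08 (95% interval -0.43 to 0.27). Leaving out 1 exposed library of the low responder group (number 92 at 18 hours) moved the change to -0.58, under the fold threshold. The E. coli effect on IRF1 changed with time by -0.28 in the high and -0.36 in the low responder group, and neither passed. The log2 difference between these changes was 0.08 (95% interval -0.62 to 0.79), and 0 of 11905 genes (0%) passed that test in edgeR, where 1160 were below 0.05 without adjustment, and 35 passed in DESeq2. In order of mean level, the exposed wells of the high responder group at 3 hours (2162 ± 569 CPM, SD, n = 3) and at 18 hours (2047 ± 149) and those of the low responder group at 3 hours (2037 ± 155) overlapped. Those of the low responder group at 18 hours followed without overlap (1280 ± 157 CPM).

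IRF8 had smaller increases than IRF1 in all 4 comparisons, and its level fell between the time points. At 3 hours its control wells gave 37.1, 44.7 and 50.6 CPM in the high and 41.6, 58.4 and 67.2 CPM in the low responder group, and the exposed wells gave 202, 300.7 and 319 CPM against 246, 488 and 513 CPM. Both kinds of well overlapped between the phenotypes. At 18 hours its control wells gave 34.7, 38.3 and 39.7 CPM in the high and 33.8, 39.0 and 42.7 CPM in the low responder group. Exposed wells then gave 90.4, 99.3 and 128 CPM in the high and 118, 204 and 253 CPM in the low responder group. The exposed ranges of the phenotypes overlapped through 1 library of the low responder group, whose value lay below the highest high responder value.

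The fitted IRF8 increase was 6.33-fold in the high and 7.28-fold in the low responder group at 3 hours, and 2.77-fold and 4.71-fold at 18 hours. Its log2 changes per pair overlapped between the phenotypes at both time points, from 1.99 to 3.01 against 2.56 to 3.06 at 3 hours and from 1.24 to 1.69 against 1.59 to 2.59 at 18 hours. The difference between the effects was -0.20 at 3 hours (SE 0.27, edgeR adjusted p = 0.784), with a 95% interval from -0.81 to 0.41. At 18 hours it was -0.77 (SE 0.25, 95% interval -1.33 to -0.21, edgeR adjusted p = 0.157), so that the smaller increase in the high responder group did not pass the threshold. IRF8 was the only one of the 3 genes with a negative difference. The value depended on 1 pair of the low responder group, number 94, the one with the smallest change. Without that pair the difference was -1.09 (edgeR adjusted p = 0.0375). In the exposed wells themselves the log2 difference was -0.58 at 3 hours (SE 0.31, edgeR adjusted p = 0.455; 0.0839% of genes passed) and -0.86 at 18 hours (SE 0.27, edgeR adjusted p = 0.172). DESeq2 called the latter, with an adjusted p of 0.0334 (5.69% of genes passed). The control wells differed by -0.34 at 3 hours and by -0.05 at 18 hours, both with intervals that included 0.

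From 3 to 18 hours, IRF8 fell in the exposed wells of both phenotypes. The log2 change was -1.37 in the high (SE 0.28, edgeR adjusted p = 0.00118) and -1.12 in the low responder group (SE 0.28, edgeR adjusted p = 0.00664), where 13.2% and 11.4% of all genes fell. These correspond to levels 2.58-fold and 2.17-fold lower at 18 hours, and both calls were kept when any library was left out. The E. coli effect on IRF8 fell by 1.13 in the high responder group (SE 0.29, edgeR adjusted p = 0.0110; 15.9% of genes fell) and changed by -0.60 in the low responder group (SE 0.29, edgeR adjusted p = 0.182). The log2 difference between these changes was -0.53 (95% interval -1.42 to 0.36, edgeR adjusted p = 0.706), so that a faster decline in 1 phenotype was not shown. By mean level, the exposed wells at 3 hours of the low (416 ± 148 CPM, SD, n = 3) and high responder group (274 ± 63.1), then those at 18 hours of the low (192 ± 68.5) and high responder group (106 ± 19.8), each overlapped with the next. The control wells lay below them without overlap and overlapped among themselves. None of the 3 genes passed in the control wells from 3 to 18 hours, where 0.0084% of genes passed in the high and 0.0336% in the low responder group.

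PRDM1 had overlapping levels in the control wells, and its increase was larger in every high responder pair than in any low responder pair. At 3 hours its control wells gave 43.2, 45.7 and 49.5 CPM in the high and 37.8, 51.4 and 62.9 CPM in the low responder group, and at 18 hours 44.6, 46.9 and 48.1 CPM against 43.8, 47.1 and 48.7 CPM. These ranges overlapped, and the log2 differences were -0.14 (95% interval -0.66 to 0.39) and -0.01 (95% interval -0.21 to 0.19). The interval at 18 hours leaves room for a difference of at most 0.21 in either direction. Exposed wells gave 428, 496 and 533 CPM in the high and 205, 351 and 381 CPM in the low responder group at 3 hours, and 275, 289.5 and 373 CPM against 129, 199 and 226 CPM at 18 hours. All exposed wells of the high responder group lay above those of the low responder group at both time points, as was the case for 8.16% of genes at 3 hours and 12.2% at 18 hours.

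The log2 changes of PRDM1 per pair were 3.11, 3.43 and 3.62 in the high against 2.43, 2.60 and 2.77 in the low responder group at 3 hours, and 2.55, 2.69 and 2.95 against 1.56, 2.07 and 2.21 at 18 hours. They did not overlap at either time point, nor did those of 9.13% of all genes at 3 hours and 10.8% at 18 hours in this direction. The fitted increases were 10.9-fold and 6.12-fold at 3 hours, and 6.60-fold and 3.8-fold at 18 hours. The difference between the effects was 0.83 at 3 hours (SE 0.18, edgeR adjusted p = 0.109) and 0.79 at 18 hours (SE 0.18, edgeR adjusted p = 0.0652), and neither passed in edgeR. DESeq2 called both (adjusted p = 0.0277 and 0.00388), with 1.99% of genes at 3 hours and 4.01% at 18 hours. Without the high responder library number 94, the pair with the smallest change, edgeR called the 3 hours value (0.94, edgeR adjusted p = 0.00428). No other pair left out gave a call, and the value was between 0.73 and 0.94 when single pairs were left out. The difference changed from 3 to 18 hours by -0.0043 on the log2 scale (95% interval -0.59 to 0.58). In the exposed wells the log2 difference was 0.67 at 3 hours (SE 0.25, edgeR adjusted p = 0.334) and 0.75 at 18 hours (SE 0.22, edgeR adjusted p = 0.149).

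**Figure D3:**
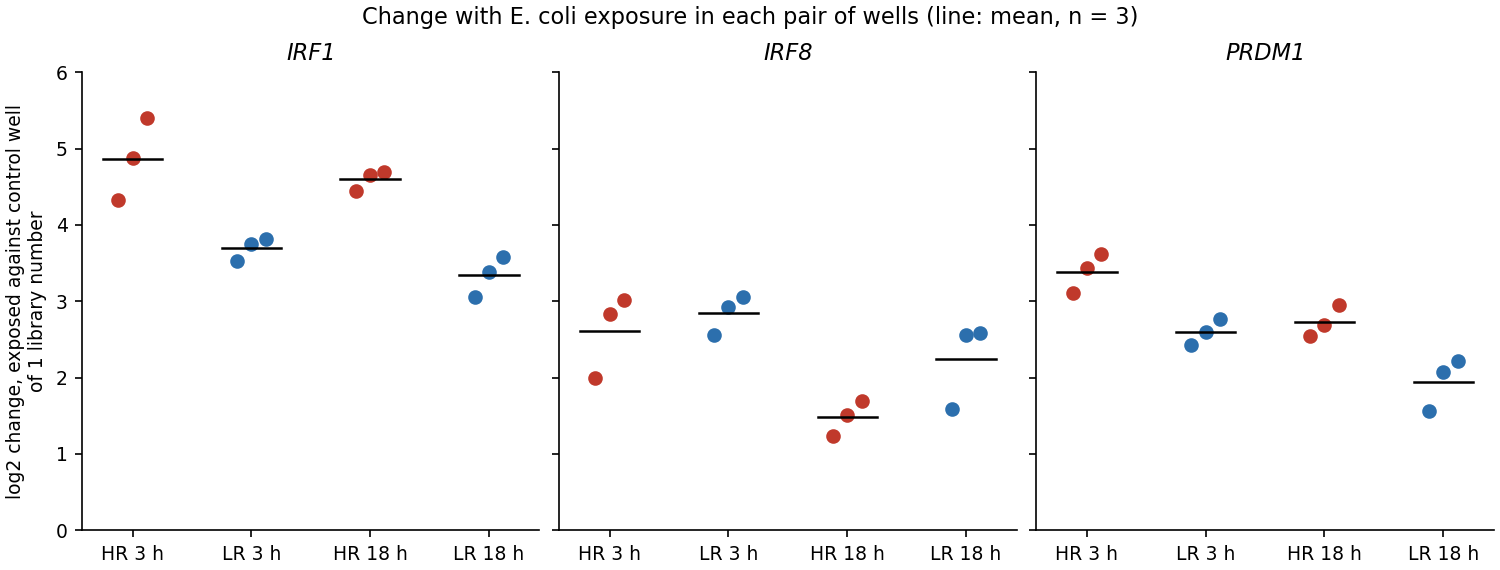
Log2 change with E. coli exposure of IRF1, IRF8 and PRDM1 in each pair of wells, by phenotype (HR, high responder; LR, low responder) and time point; lines are means of 3 pairs. For IRF1 and PRDM1 the high responder pairs lay above the low responder pairs at both time points, and for IRF8 the phenotypes overlapped at both.

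PRDM1 fell from 3 to 18 hours in the exposed wells of both phenotypes. The log2 change was -0.64 in the high (SE 0.22, edgeR adjusted p = 0.0356) and -0.76 in the low responder group (SE 0.22, edgeR adjusted p = 0.0174). The E. coli effect fell by 0.66 in the high (SE 0.19, edgeR adjusted p = 0.0196) and by 0.65 in the low responder group (SE 0.19, edgeR adjusted p = 0.0329), where 15.9% and 10.4% of all genes fell. These 4 calls were near the threshold. The fall of the level was lost in the high responder group without any of 4 exposed libraries (numbers 92 and 93 at 3 hours, 91 and 93 at 18 hours; smallest change -0.55) and in the low responder group without any of 3 (numbers 92 and 93 at 3 hours, 92 at 18 hours; smallest change -0.56). The fall of the effect was lost without the same numbers, and in the low responder group also without number 91 at 18 hours. By mean level, the exposed wells of the high responder group at 3 hours (486 ± 53.2 CPM, SD, n = 3) stood above all others without overlap. Those of the high responder group at 18 hours (312 ± 52.9), of the low responder group at 3 hours (312 ± 94.4) and of the low responder group at 18 hours (185 ± 49.8) each overlapped with the next.

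Levels of different genes can be compared only per transcript length. On the TPM scale, IRF1 was above IRF8 and PRDM1 in all 24 libraries. Its mean level was between 35.0 and 78.0 TPM in the control wells and between 603 and 840 TPM in the exposed wells, where it ranked between 180 and 274 among the 13886 to 14579 genes with a TPM above 0. Exposed wells held on average between 62.0 and 211 TPM of IRF8 and between 52.3 and 107 TPM of PRDM1.

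The ratio of PRDM1 to IRF8 within a library cancels the normalization between libraries. In the control wells at 18 hours the TPM ratio was between 0.513 and 0.543 in the high and between 0.465 and 0.548 in the low responder group, and these ranges overlapped. In the exposed wells at 18 hours it was between 1.23 and 1.28 in the high responder group (mean 1.25) and between 0.268 and 0.807 in the low responder group (mean 0.469). PRDM1 was thus above IRF8 in all 3 exposed libraries of the high responder group at 18 hours and below it in the other 21 libraries. At 3 hours the exposed wells gave 0.697 to 0.895 against 0.169 to 0.655, again without overlap. The control wells at 3 hours gave 0.407 to 0.521 in the high and 0.238 to 0.638 in the low responder group. How often ratios of other genes separate the phenotypes was not counted. Exposed levels of single genes did so, with the high responder group above, for 8.16% of genes at 3 hours and 12.2% at 18 hours. The smallest two-sided p that an exact permutation test of 3 against 3 values can give is 0.1, and no test was made of these ratios. The ratio of IRF1 to IRF8 at 18 hours was between 12.1 and 15.1 in the exposed wells of the high and between 3.85 and 7.63 in those of the low responder group. The ratio of IRF1 to PRDM1 overlapped there, with 9.88 to 11.8 and 9.46 to 14.4.

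**Figure D4:**
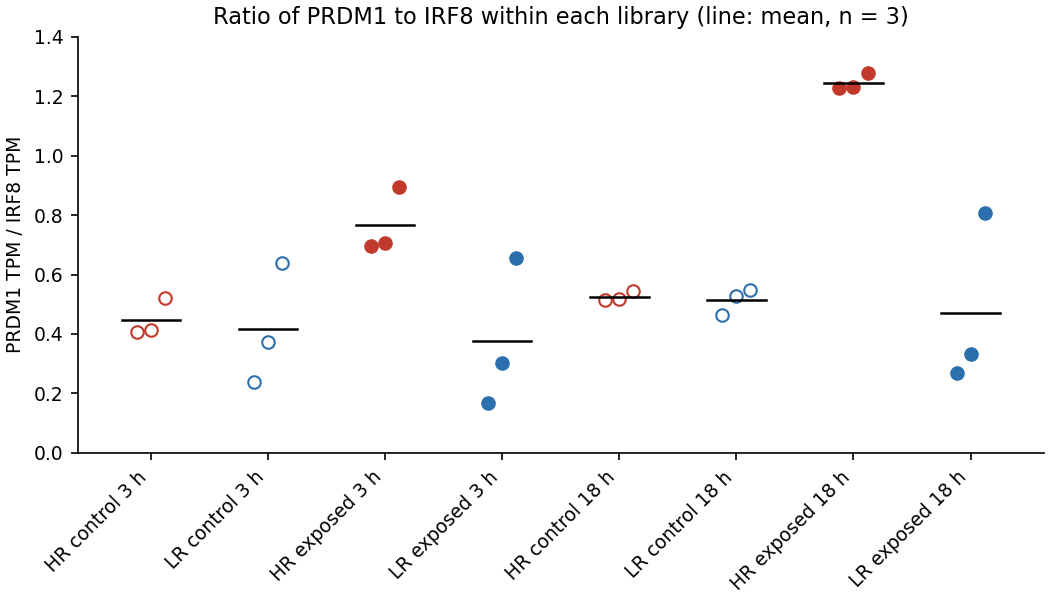
Ratio of PRDM1 to IRF8 in each library, on the TPM scale, by phenotype (HR, high responder; LR, low responder), well (open, control; filled, exposed) and time point; lines are means of 3 libraries. The 3 exposed high responder libraries at 18 hours lay between 1.23 and 1.28, and all others were below 1.

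Within the low responder group, 1 pair of libraries stood apart from the others in exposed IRF8 at each time point. Library number 93 at 3 hours and number 94 at 18 hours share a code letter. Of the exposed low responder wells, they had the lowest IRF8 (246 and 118 CPM) and the highest PRDM1 (381 and 226 CPM). They did not stand apart in PRDM1, where the other wells gave 351 and 205 CPM at 3 hours and 199 and 129 CPM at 18 hours. The same pairs had the smallest changes of IRF1 (3.52 and 3.05) and of IRF8 (2.56 and 1.59) in the group. The labels do not say that the letters mark a cow, but for deviations from condition means across time points, r was 0.299 to 0.682 where libraries shared a letter (12 pairs) and -0.502 to -0.0052 where they did not (24 pairs). With a term for the letter in the fits over time, no call of the 3 genes changed. The falls of PRDM1 in the exposed wells then had an edgeR adjusted p of 0.00141 in the high and 0.000463 in the low responder group. The library number also splits the series, with numbers 91 and 92 for 1 high and 2 low responder pairs and 93 and 94 for 2 high and 1 low responder pair at each time point. Each split holds too few pairs for a comparison within it. In 1 alternative fit, numbers 91 and 92 were pooled, as were 93 and 94, a pooling that the labels do not state. With 1 term for exposure in numbers 93 and 94, the 18 hours difference was 1.3 for IRF1 (edgeR adjusted p = 0.0338). It was -0.66 for IRF8 (edgeR adjusted p = 0.335) and 0.68 for PRDM1 (edgeR adjusted p = 0.142).

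Across the 12 pairs of wells, the changes of IRF1 and PRDM1 varied together (Pearson r = 0.83), whereas those of IRF8 had an r of -0.04 with IRF1 and 0.15 with PRDM1. These are descriptions, since the 12 points share phenotypes and time points. The genes most like each member were sought among 2284 genes that had a symbol here. Over the 24 libraries, which fall into control and exposed wells, the highest r with IRF1 was 0.989 for ACOD1, the enzyme that makes itaconate, followed by CXCL8, a neutrophil chemokine, and GCH1, the first enzyme of tetrahydrobiopterin synthesis. IRF8 was followed by RCAN1 (0.960), an inhibitor of calcineurin, and by the early response genes NR4A1 and MAFF. PRDM1 was followed by TNFAIP3 (0.984), the NF-kB inhibitor A20, and by RHOH and ACSL5. Over the 12 changes, the closest genes were TGIF1, GBP5 and RSAD2 for IRF1 (0.952 to 0.957), CENPX, SLC29A1 and MPND for IRF8 (0.925 to 0.953), and SRC, PARP11 and GPR84 for PRDM1 (0.946 to 0.956). A high r here reflects how changes vary between pairs, not their direction. Mean CENPX and MPND were lower in exposed than in control wells in both phenotypes at both time points. At 18 hours in the high responder group, CENPX went from 21.8 to 8.05 CPM, MPND from 23.4 to 8.82 and SLC29A1 from 43.2 to 21.4. SRC went from 36.5 to 32.5 CPM at 18 hours in the low responder group. Elsewhere SLC29A1 and SRC had higher means in exposed wells.

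Other genes of the same pathways were taken from lists of textbook members. Only genes with a symbol here could be used. The symbols stem in part from genes with low p values in a test of the 18 hours difference on these samples. Neither counts or medians of a difference between the phenotypes nor a contrast of counts or medians between them is thus independent evidence. A gene whose effects differ also has an effect in at least 1 phenotype. Counts and medians of the E. coli effects of listed genes, set beside those over all genes, are thus no independent evidence either. Of the IRF family, values are given for IRF2, IRF4 and IRF9. IRF9, the DNA-binding subunit of the interferon-stimulated complex ISGF3, rose in both phenotypes at 3 hours (log2 change 1.08, SE 0.21, and 0.97, SE 0.21). At 18 hours it rose in the high responder group (0.59, SE 0.08), and its value in the low responder group was -0.0015 (SE 0.08). The difference of these effects passed (0.59, SE 0.12, edgeR adjusted p = 0.0402). The log2 difference of its level, high minus low, was -0.57 in the control and 0.02 in the exposed wells, and neither passed in edgeR. IRF2, which binds the same elements as IRF1 and antagonizes it, rose in the high responder group at 18 hours (0.73, SE 0.11). IRF4 had between 11 and 51 counts summed over the 3 libraries of a condition, and it was not tested in the fits of a time point. PRDM14, the only other PR domain gene with an identifier, had at most 12.

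**Figure D5:**
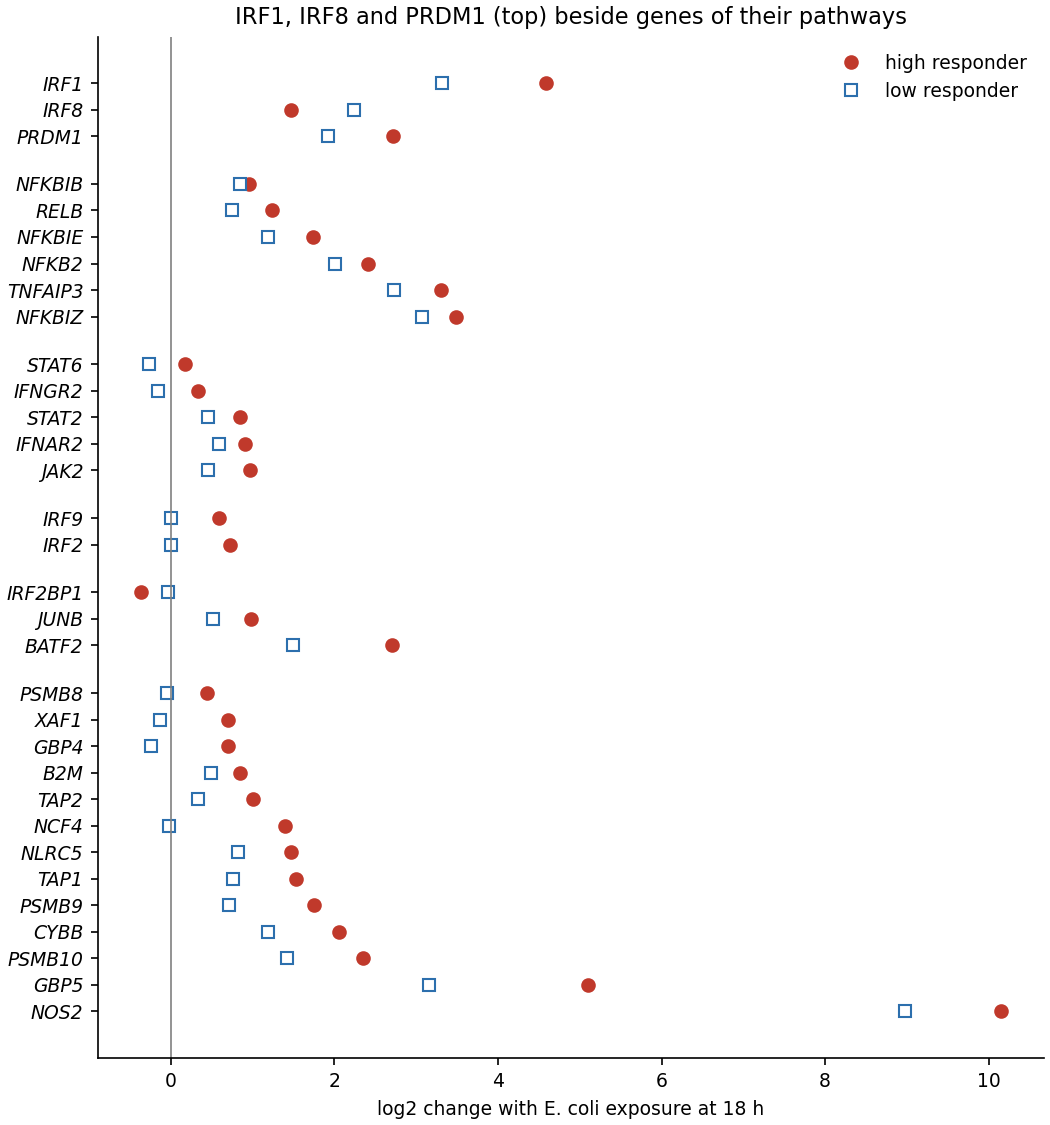
Log2 change with E. coli at 18 hours in the high (filled circles) and low responder group (open squares) for IRF1, IRF8 and PRDM1, followed from top to bottom by NF-kB genes, interferon receptor and JAK-STAT genes, IRF family genes, partners and textbook targets. The value of IRF8 was 1.47 in the high and 2.24 in the low responder group, whereas those of IRF1 (4.59 and 3.32) and PRDM1 (2.72 and 1.93) had the opposite order.

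Of 10 listed NF-kB subunits and inhibitors, 6 had an identifier. All 6 rose in all 4 comparisons, where between 9.93% and 17.1% of all genes did. The shares over all genes were not limited to genes with a symbol. The 6 were the subunits NFKB2 and RELB, the inhibitors NFKBIB, NFKBIE and TNFAIP3, and the cofactor NFKBIZ. Their median log2 change was 3.44 in the high and 2.76 in the low responder group at 3 hours, and 2.08 and 1.60 at 18 hours, beside medians over all genes between -0.04 and 0.00. TNFAIP3 had 4.93 and 3.96 at 3 hours and 3.31 and 2.73 at 18 hours, and NFKBIZ, an inducible nuclear cofactor, 4.91 and 3.76 and then 3.49 and 3.07. The E. coli effects of the listed genes then fell by 18 hours in 6 of 6 in the high and 5 of 6 in the low responder group. Among all genes, 15.9% and 10.4% fell. IRF8 passed this fall in 1 phenotype and PRDM1 in both. In the edgeR test of the difference between phenotypes, 0 of these 6 genes passed at either time point, where 0.178% and 1.62% of all genes did. Without adjustment, 4 were below 0.05 at 3 hours and 5 at 18 hours, beside 1430 of 11264 and 2067 of 11759 genes, and DESeq2 called 2 and 1 (1.99% and 4.01% of all genes). Of 5 of 15 interferon receptor and JAK-STAT genes, 4 rose at 3 hours and 3 at 18 hours in the high responder group (15.7% and 17.1% of all genes), and 2 and 1 did in the low (9.93% and 11.3%). JAK2, a kinase of the interferon-gamma receptor, rose by 2.25 and 1.86 at 3 hours, and IFNAR2, a chain of the type I interferon receptor, by 1.65 and 1.72.

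Of the DNA-binding partners, 3 of 11 had an identifier. BATF2, which pairs with IRF1 and IRF8, rose in the high responder group at both time points (1.70, SE 0.48, and 2.71, SE 0.43). It also rose in the low responder group at 18 hours (1.49, SE 0.38). Its counts were low. Summed over 3 libraries, the high responder group had 35 in the control and 64 in the exposed wells at 3 hours. JUNB, an AP-1 subunit, rose by 2.75 and 1.79 at 3 hours in the high and low responder group. IRF2BP1, a corepressor, did not pass in any of these comparisons, with values between -0.57 and 0.04.

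Downstream, 13 of 27 textbook targets of IRF1 and IRF8 had an identifier. In the high responder group, 10 rose at 3 hours and 12 at 18 hours, and in the low responder group 6 and 7 did. Among all genes, which were not limited to those with a symbol, 15.7% and 17.1% rose in the high and 9.93% and 11.3% in the low responder group. None of the targets fell in these comparisons. NOS2, the inducible NO synthase, had a log2 change of 8.83 and 7.19 at 3 hours in the high and low responder group and of 10.1 and 8.98 at 18 hours. GBP5, a guanylate-binding protein, had 5.67 and 3.70 and then 5.10 and 3.15, with a passed difference at both time points (1.96, edgeR adjusted p = 0.0265, and 1.95, edgeR adjusted p = 0.00498). At 18 hours 4 more targets passed the difference: TAP1 (0.77), the peptide transporter of antigen processing, PSMB10 (0.92), an immunoproteasome subunit, NCF4 (1.41), a subunit of the NADPH oxidase, and XAF1 (0.83), an interferon-induced regulator of apoptosis.

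In the control wells, where IRF1 had the lower values in the high responder group, 0 of the 13 targets passed in edgeR at either time point. At each, 8 were below 0.05 without adjustment, as were 866 of all 11034 genes at 3 hours and 2460 of 11356 at 18 hours. In DESeq2 3 targets passed at 3 hours and 6 at 18 hours (2.18% and 6.1% of all genes). Their median log2 difference, high minus low, was -0.84 at 3 hours and -0.66 at 18 hours, beside 0.01 over all genes at both. Mean GBP5 was 3.85 ± 2.21 CPM in the high and 27.7 ± 16.7 CPM in the low responder control wells at 3 hours (SD, n = 3). TAP1 was 97.3 ± 20.1 against 183 ± 22.5 CPM there. In the exposed wells the median difference of the targets was -0.38 at 3 hours and 0.23 at 18 hours, beside 0.02 and -0.02 over all genes. The medians of the targets in control and exposed wells are no independent evidence. Symbols stem in part from a test of the 18 hours difference of effects, which subtracts the control wells. The medians over all genes were not limited in this way.

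Of 10 textbook targets that PRDM1 represses, 3 had an identifier. CCL8, a monocyte chemokine, rose at 3 hours in both phenotypes (4.74, SE 0.42, and 2.81, SE 0.37) and fell at 18 hours, with -2.64 in the high (SE 0.48) and -5.03 in the low responder group (SE 0.53). Its mean level in the exposed wells went from 1457 ± 743 to 21.4 ± 12.1 CPM in the high and from 1804 ± 158 to 7.70 ± 6.98 CPM in the low responder group. BCL6, a repressor that opposes PRDM1 in B cells, rose at 3 hours (2.04, SE 0.13, and 0.87, SE 0.12) and in the high responder group at 18 hours (1.14, SE 0.17). TCF7, a T cell factor, did not pass in any of the 4 comparisons.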

How the data were processed

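MDM libraries of 24 wells were analysed. Per the labels and the methods of the study, the authors trimmed stranded mRNA read pairs with Trimmomatic, checked them with FastQC 0.11.5, aligned to assembly UMD 3.1 by STAR, used RSEM for quantification and DESeq2 1.22.2 for testing. The deposited values used are expected counts, which are not normalized, TPM, and effective lengths. Expected counts were rounded.

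Counts were fitted in R 4.3.3 with edgeR 4.0.16: filterByExpr by condition, TMM, and quasi-likelihood tests with Benjamini-Hochberg adjustment over all genes tested. Each time point was fitted with 12 libraries, a term for each pair of wells and an E. coli effect per phenotype. Control and exposed wells were compared between phenotypes over 6 libraries, and levels and effects between time points over 24, with no term that links the time points of a cow. SE is the log2 change divided by the square root of the F statistic, and intervals are 95%. CPM were TMM-normalized over 24 libraries. On simulated data, edgeR and DESeq2 were tested for the high responder effect, the difference of effects and the exposed wells at each time point. Between time points, the exposed level in the low and the effect in the high responder group were simulated. The other contrasts and alternatives were not. Changed means an adjusted p below 0.05 and a fold change above 1.5.

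Library numbers were taken to pair the wells, which the labels do not state; the methods name a treated and a control file for each sample. For deviations from condition means, r was 0.340 to 0.690 for 12 pairs sharing a number and -0.523 to -0.0124 for 24 pairs that did not. Labels name no separate cultures beyond the cow, and each cow gave 1 well per condition. The p values thus cannot separate the spread between cows from that between wells. In the fits with a term for each pair they measure the spread of the changes, not of the levels. The tests of levels between time points treated wells of the same cow as independent. Counting error is small at these depths.

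Members, lists, tests and alternatives (other size factors, filters of 0 or a mean of 50 counts, DESeq2 1.42.0 with and without length offsets, an adjusted p of 0.1, other terms, TPM, and leaving out libraries) were chosen with earlier results of these data known. Named genes were the members, the 3 genes of highest correlation in each of 2 measures, IRF family genes, and up to 4 genes a list with the largest change among those that passed, with further list genes given where a count turned on them. Symbols came from the first 1997 rows of each of 2 supplementary tables and cover 2803 genes. A search for motifs in promoters was not run, and no sequence is printed. Results for some genes are not reported.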

Additional observations from a re-analysis of the deposited data

Results flagged for a closer look

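For 4 results, the E. coli effect differed between 2 groups by a test of the difference itself. The effect on IRF1 at 18 hours was larger in the high than in the low responder group by 1.27 on the log2 scale (edgeR adjusted p = 0.00799). Each of the 3 high responder pairs had a larger change than each low responder pair, as was the case for 10.8% of all genes. Between the time points, the effect on IRF8 in the high responder group changed by -1.13 from 3 to 18 hours (edgeR adjusted p = 0.0110). The effect on PRDM1 changed by -0.66 in the high (edgeR adjusted p = 0.0196) and by -0.65 in the low responder group (edgeR adjusted p = 0.0329). Each condition had 3 libraries, too few for a check of outlying samples.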

How the results depend on the processing

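The 12 E. coli effects kept their direction and passed both thresholds under every alternative tried, replicates left out included. Without the replicate block (the term for pairs), the calls of the IRF1 difference at 18 hours (1.28), the change of the effect with time on IRF8 in the high responder group (-1.13) and on PRDM1 in the high (-0.65) and low responder group (-0.63) were lost. The block changed no other call of the 3 genes, and without it the number of genes called went from 20 to 0 at 3 hours and from 190 to 0 at 18 hours for the difference, from 3113 to 1824 for the effect at 3 hours in the high and from 1995 to 829 in the low responder group. With exposure by library number, these were 0, 67 and 1678 (the last in the high responder group).

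Some values that did not pass were called under alternatives. The IRF1 difference at 3 hours was called at an adjusted p below 0.1 (1.22), with no filter (1.21), in DESeq2 (1.21, also with length offsets) and with all 24 libraries (1.17). For PRDM1, the 3 hours difference was called in DESeq2 (0.82, also with length offsets), and the 18 hours difference at an adjusted p below 0.1 (0.79), with no filter (0.80) and in DESeq2 (0.82, with length offsets 0.81). DESeq2 with and without length offsets called IRF1 in control wells at 3 hours (-1.13 in both) and 18 hours (-0.60 in both), and in exposed wells at 18 hours IRF1 (0.69 and with offsets 0.68), IRF8 (-0.84 and -0.85) and PRDM1 (0.77 and 0.76). An adjusted p below 0.1 called IRF1 in control wells (-0.60) and exposed wells (0.67) at 18 hours. The change of the PRDM1 difference with time turned from -0.0043 to 0.0033 with no filter, 0.0089 with a mean of 50 counts and 0.021 with a block by code letter. DESeq2 called 189 and 398 genes for the difference at 3 and 18 hours, no filter 103 and 435, an adjusted p of 0.1 123 and 448, and all libraries 165 and 124. On the TPM scale, the log2 ratio of mean IRF1 in exposed wells at 18 hours was 0.48 instead of 0.68. The cause of these changes was not tested.

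Leaving out single replicates gave these ranges where a sign or a call changed. The difference of the effects at 3 hours was between 0.96 and 1.46 for IRF1, -0.41 and 0.075 for IRF8, and 0.73 and 0.94 for PRDM1, with the highest value of each without the high responder number 94, and that of IRF8 at 18 hours was between -1.09 and -0.59. Control wells gave -0.32 to 0.027 for PRDM1 at 3 hours, and -0.13 to 0.038 for IRF8 and -0.052 to 0.015 for PRDM1 at 18 hours, and exposed wells at 3 hours gave -0.12 to 0.27 for IRF1. From 3 to 18 hours, control wells gave -0.034 to 0.068 (high) and -0.30 to 0.065 (low responder group) for PRDM1. Exposed wells gave -0.24 to 0.14 (high) and -0.76 to -0.58 (low) for IRF1, and -0.78 to -0.55 (high) and -0.99 to -0.56 (low) for PRDM1. The effect on PRDM1 changed by -0.80 to -0.54 (high) and -0.80 to -0.46 (low), and the change of the difference was -0.19 to 0.36 for IRF1 and -0.20 to 0.15 for PRDM1. The number of genes called for the difference was between 0 and 506 at 3 hours and between 30 and 178 at 18 hours (lowest without the low responder number 92), and between 932 and 2423 for the effect in the low responder group at 3 hours. The 3 genes had at least 272 counts in every library, so that depth was not their limit.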
